A study of Homo sapiens with 45 samples.

Results

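The 32 genes described here encode the regulators, enzymes and one transporter of cholesterol and fatty acid synthesis, and were chosen by name from a table of 26463 genes measured in MM.1S cells, an established human multiple myeloma line grown in RPMI medium with fetal bovine serum. They are 5 regulators, 18 enzymes of the sterol arm, the sterol carrier STARD4 and 8 enzymes of the fatty acid arm. RNA sequencing of total RNA had been run on 45 libraries, made with a strand-specific mRNA kit. By title there are 15 groups of 3 samples. Each of 5 compounds has its own DMSO group, labelled 0 h, and groups exposed for 6 h or for 24 h, to KB528 at 0.5 uM, the p300 and CBP bromodomain inhibitors GNE781 at 0.3 uM and CCS1477 at 3 uM, the BET bromodomain inhibitor JQ1 at 0.5 uM, or the cereblon ligand lenalidomide at 1 uM. All groups are of this 1 line, and DMSO is listed at 0 h only, so a DMSO group at 6 h or 24 h was not analysed here. The names of the 45 value columns, such as S7 or S12, matched the labels of 0 samples. Each column was therefore taken as an unlabelled MM.1S library, no compound or time was assigned to any, and no comparison between treatments, test or p-value is given.

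Cells make cholesterol from acetyl-CoA by way of mevalonate, farnesyl diphosphate, squalene and lanosterol, and make fatty acids from the same acetyl-CoA by carboxylation, chain building, elongation and desaturation. Both routes are transcribed under SREBP proteins, which are encoded by SREBF1 and SREBF2 and held in the endoplasmic reticulum by SCAP and the INSIG proteins when sterol is plentiful. When sterol is scarce, SCAP carries SREBP to the Golgi, where it is cut, and the released part binds promoters together with general factors such as NF-Y and Sp1. A plasma cell, the normal counterpart of myeloma, keeps a large endoplasmic reticulum for antibody secretion and so has a large demand for membrane lipid.

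The promoters of the members were searched for 4 short motifs on both strands, in the 250 bases before each transcription start in RefSeq (build GRCh38.p14). Of the 32 genes 28 had an entry, with 38 starts in all, and a gene was counted where any of its starts held the motif. ACAT2, FDFT1, FASN and SQLE are named only. The core of the sterol regulatory element, TCACNCCA, was found in 3 of 28 members (10.7%), MSMO1, MVK and SREBF2. It was found in 3.92% of all 27305 genes with a promoter entry, measured here or not. Of these, 8910 had a median of at least 1 TPM (the unit of abundance explained below) in these libraries, and 3.78% of them held it. Among all 35116 promoters, 3.20% hold it, as do 3 of the 38 promoters of members. The 3 promoters are shown for their spacing of this core and the NF-Y box (CCAAT), both of which are in capitals on whichever strand they occur.
MSMO1, chr4:165327419-165327668, plus strand: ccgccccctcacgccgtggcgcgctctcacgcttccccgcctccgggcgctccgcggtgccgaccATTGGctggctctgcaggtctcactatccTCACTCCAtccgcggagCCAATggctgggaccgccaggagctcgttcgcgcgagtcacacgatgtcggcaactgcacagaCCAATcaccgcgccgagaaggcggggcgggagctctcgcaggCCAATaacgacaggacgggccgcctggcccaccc
MVK, chr12:109573544-109573793, plus strand: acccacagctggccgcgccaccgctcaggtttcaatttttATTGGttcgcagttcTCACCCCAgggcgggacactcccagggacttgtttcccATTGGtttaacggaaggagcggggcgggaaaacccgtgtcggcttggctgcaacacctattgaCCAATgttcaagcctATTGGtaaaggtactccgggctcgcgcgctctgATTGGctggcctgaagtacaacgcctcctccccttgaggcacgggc
SREBF2, chr22:41832855-41833104, plus strand: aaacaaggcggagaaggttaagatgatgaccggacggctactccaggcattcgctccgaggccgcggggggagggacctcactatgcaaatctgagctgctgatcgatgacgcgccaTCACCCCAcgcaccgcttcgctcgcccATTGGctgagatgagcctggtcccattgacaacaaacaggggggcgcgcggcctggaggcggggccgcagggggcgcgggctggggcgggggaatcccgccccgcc
The core lay 156 to 149 bases before the start in MSMO1, 195 to 188 in MVK and 133 to 126 in SREBF2. In MSMO1, which also holds 4 NF-Y boxes, the nearest lay at 139 to 135. MVK holds 5, the nearest at 210 to 206, and SREBF2 holds 1, at 106 to 102. In these 3 windows no core overlapped another motif.

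The promoters of 4 members without that core are shown because the values below turn on these genes. CYP51A1 followed the sterol arm most closely, SCD and INSIG1 were among the most widely spread, and TM7SF2 ran opposite to most of its arm.
CYP51A1, chr7:92134478-92134727, minus strand: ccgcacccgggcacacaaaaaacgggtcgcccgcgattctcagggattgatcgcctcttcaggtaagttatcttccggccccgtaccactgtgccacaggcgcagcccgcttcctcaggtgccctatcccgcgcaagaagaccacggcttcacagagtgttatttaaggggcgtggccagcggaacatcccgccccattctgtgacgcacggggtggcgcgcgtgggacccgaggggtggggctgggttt
SCD, chr10:100346983-100347232, plus strand: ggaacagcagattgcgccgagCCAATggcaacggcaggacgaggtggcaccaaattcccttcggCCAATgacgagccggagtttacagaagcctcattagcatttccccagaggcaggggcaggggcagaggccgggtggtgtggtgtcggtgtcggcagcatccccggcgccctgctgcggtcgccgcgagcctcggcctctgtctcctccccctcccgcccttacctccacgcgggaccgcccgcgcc
INSIG1, chr7:155297628-155297877, plus strand: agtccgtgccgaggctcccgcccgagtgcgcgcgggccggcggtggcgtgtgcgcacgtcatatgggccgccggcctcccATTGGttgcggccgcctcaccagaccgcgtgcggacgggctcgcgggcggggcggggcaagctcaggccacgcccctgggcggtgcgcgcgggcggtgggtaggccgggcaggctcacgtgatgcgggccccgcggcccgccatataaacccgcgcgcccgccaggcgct
TM7SF2, chr11:65111622-65111871, plus strand: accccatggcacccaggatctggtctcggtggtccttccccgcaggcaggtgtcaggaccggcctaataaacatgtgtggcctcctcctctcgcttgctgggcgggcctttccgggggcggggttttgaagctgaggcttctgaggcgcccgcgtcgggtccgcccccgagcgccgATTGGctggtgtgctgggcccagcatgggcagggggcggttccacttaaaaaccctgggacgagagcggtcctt
CYP51A1 holds 0 NF-Y boxes in this window, SCD holds 2, and INSIG1 and TM7SF2 hold 1 each. Over all members the NF-Y box was present in 20 of 28 (71.4%), against 37.0% of all genes and 42.3% of the expressed genes. By promoter it was in 24 of the 38 of members, against 32.01% of all promoters. The GC box GGGCGG, the Sp1 motif, was present in 27 of 28 members (96.4%), against 46.2% of all genes and 75.0% of the expressed genes. By promoter it was in 34 of the 38 of members, against 42.6% of all promoters. The E-box CACGTG was present in 3 of 28 members (10.7%), SCAP, INSIG1 and SC5D, against 7.73% of all genes and 11.7% of the expressed genes. By promoter it was in 4 of the 38 of members, against 6.35% of all promoters. A match of letters is a description of these windows and not a binding site.

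Levels are in TPM, a read-based abundance divided by transcript length that sums to 1000000 in each library, so that levels of different genes can be set side by side. The number of reads behind a TPM value is unknown. Genes above 0 numbered 15455 to 17462 per library, and the 10 most abundant genes took 8.99% to 18.1% of all TPM. The 10 plasma cell and myeloma markers all had a median of at least 1 TPM, with summed levels of 3137 to 11920 TPM. Of 12 markers of other cell types none reached that median, and their highest sum in any library was 1.66 TPM, for the T cell pair. The libraries do not form a single cloud. Average linkage over 12180 genes in none of the lists used here gave 5 clusters. They held 24, 6, 6, 6 and 3 libraries, with a mean silhouette of 0.70. Relations between genes over all 45 libraries are therefore set beside their values within the cluster of 24. That cluster is itself uneven. It holds all 15 libraries with SCD at 286 TPM or more, while S16 and S49 in it had 101 and 139 TPM. Values within it therefore still include differences between sets of libraries. Library S12 stood apart from all others: its rank correlation with its closest other library was 0.982, against at least 0.993 for the other 44.

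All 32 genes were expressed, with medians of 2.67 to 357 TPM. Together they made up 0.132% of all TPM in the lowest library, 0.227% at the median and 0.354% in the highest, which was S12. The sterol arm summed to 836, 1412 and 2253 TPM in the lowest, median and highest library, and the fatty acid arm to 215, 398 and 781 TPM. The highest medians belonged to FDPS, EBP, INSIG1 and SCD, and the lowest to FADS2 and SQLE. When the genes were ordered by median, neighbours overlapped in their 10th to 90th percentile ranges at every step but 1: STARD4 lay above ELOVL6, with a 10th percentile of 15.1 TPM against a 90th percentile of 13.5 TPM.

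**Figure D1:**
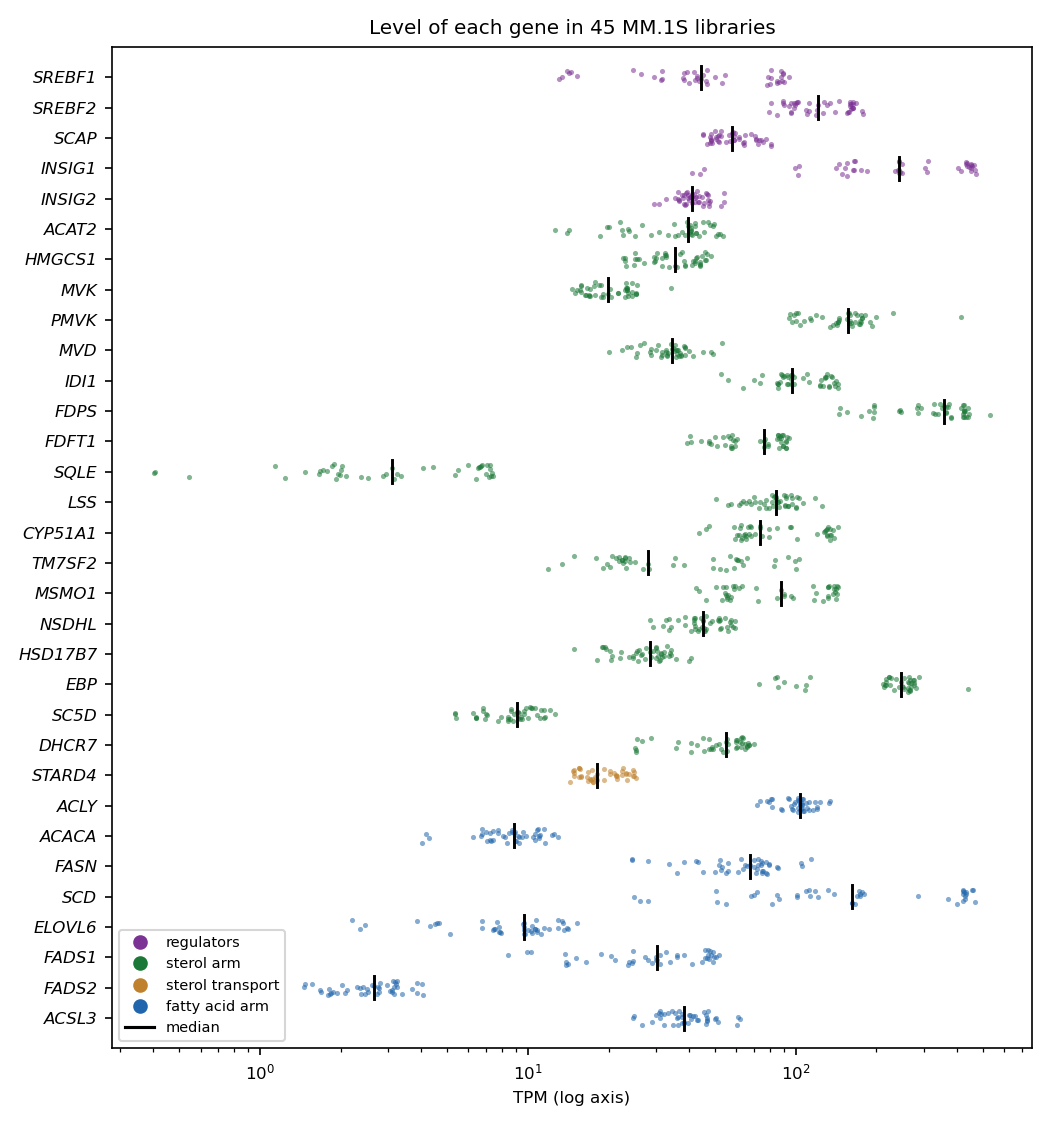
Level of each of the 32 genes in the 45 unlabelled libraries, in TPM on a log axis, grouped by role; each point is 1 library and the black mark is the median. FDPS is the highest by median at 357 TPM and FADS2 the lowest at 2.67 TPM.

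Among the regulators, INSIG1 was the most abundant and the retention proteins differed in how much they varied. INSIG1, which holds SCAP in the endoplasmic reticulum and is itself an SREBP target, had 40.9 TPM in the lowest library, 242 at the median and 469 in the highest. Its 3 lowest values were 40.9, 43.95 and 45.6 TPM in S8, S9 and S7, and the next was 99.1 TPM in S5. INSIG2, its relative, ran from 29.5 through 41.0 to 53.8 TPM, the smallest ratio of 90th to 10th percentile of all members at 1.304. SREBF1, which encodes the SREBP forms tied mainly to fatty acid synthesis, ranged from 13.1 through 44.2 to 94.7 TPM. It lay between 13.1 and 15.3 TPM in S7, S8, S9, S43, S44 and S45, and the next value was 24.7 TPM in S25. SREBF2, which encodes the form tied mainly to cholesterol synthesis, ranged less, from 79.7 through 121 to 178 TPM. SCAP, the escort of SREBP, ran from 44.96 through 57.8 to 80.8 TPM.

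The enzymes that lead to farnesyl diphosphate had medians of 19.9 to 357 TPM, and 4 of them were highest in S12. ACAT2, which joins acetyl-CoA units, had 12.6, 39.8 and 53.3 TPM in the lowest, median and highest library, and its lowest values were 12.6, 14.0 and 14.2 TPM in S45, S43 and S44. HMGCS1, which makes HMG-CoA, had 22.6, 35.3 and 48.4 TPM. MVK, mevalonate kinase, had 14.6, 19.9 and 34.2 TPM, the highest in S12 and the next 25.5 TPM in S21. In S12 the same holds for the next kinase of the route, PMVK, with 94.0, 156 and 415 TPM and a next value of 230.2 TPM in S43. MVD, the decarboxylase that makes isopentenyl diphosphate, had 20.04, 34.6 and 53.2 TPM, its highest again in S12. IDI1, which isomerises that product, had 52.6, 96.5 and 144 TPM. FDPS, farnesyl diphosphate synthase, had 145, 357 and 532 TPM. It was lowest in S45, S44 and S43, at 145, 146 and 156 TPM, and highest in S12, with the next at 442 TPM in S19.

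From squalene on, medians ran from 3.12 TPM for SQLE to 246 TPM for EBP. FDFT1, squalene synthase, had 39.3, 75.8 and 94.4 TPM. SQLE, the epoxidase that is a rate-limiting step after squalene, was the lowest of the arm at 0.401, 3.12 and 7.44 TPM, and its values in S7, S8 and S9 were 0.401, 0.407 and 0.542 TPM, with 1.13 TPM in S45 as the next. LSS, lanosterol synthase, had 50.2, 84.4 and 126 TPM. CYP51A1, lanosterol 14-demethylase, had 43.4, 73.7 and 144 TPM, and TM7SF2, a sterol 14-reductase, 11.9, 28.1 and 103 TPM. The 6 highest TM7SF2 values, 83.0 to 103 TPM, were in S22, S23, S24, S40, S41 and S42, and the next was 66.0 TPM in S27. MSMO1 and NSDHL, which remove the methyl groups at carbon 4, had 42.4, 88.4 and 144 TPM and 28.6, 45.2 and 59.3 TPM. HSD17B7, the ketoreductase of the same complex, had 14.9, 28.6 and 40.5 TPM. EBP, the isomerase that moves the ring double bond, had 73.0, 246 and 441 TPM, the highest in S12 and the next 288.8 TPM in S4. SC5D, the desaturase that follows, had 5.34, 9.12 and 12.6 TPM, and DHCR7, the last reductase, 25.2, 55.1 and 70.1 TPM. STARD4, which carries cholesterol between membranes, had 14.4, 18.04 and 25.4 TPM.

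In the fatty acid arm, SCD, the desaturase that makes oleate from stearate, was the most abundant by median and the most variable gene, at 24.9, 163 and 467 TPM. Its values lay between 24.9 and 28.1 TPM in S7, S8 and S9 and between 50.5 and 55.01 TPM in S43, S44 and S45. They were 286 TPM or more in 15 libraries, and the remaining 24 lay between 68.1 and 180.1 TPM, so the high values stood clear of the rest. ACLY, which splits citrate into cytosolic acetyl-CoA, had 71.6, 103 and 134 TPM, and ACACA, the carboxylase that makes malonyl-CoA, 4.04, 8.86 and 13.0 TPM. The 3 lowest ACACA values, 4.04, 4.18 and 4.26 TPM, were in S43, S45 and S44, below 6.24 TPM in S9. FASN, the synthase that builds palmitate, had 24.5, 67.2 and 114 TPM, lowest in S8, S9 and S7 and highest in S24, S23 and S22. ELOVL6, which elongates palmitate, had 2.21, 9.67 and 15.3 TPM, and the desaturases of polyunsaturated fatty acids, FADS1 and FADS2, had 8.42, 30.2 and 51.7 TPM and 1.46, 2.67 and 4.05 TPM. ELOVL6 and FADS1 were both lowest in S43, S44 and S45. ACSL3, which activates fatty acids with CoA, had 24.6, 38.2 and 61.7 TPM, highest in S24, S23 and S22 and lowest in S53, S54 and S52.

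**Figure D2:**
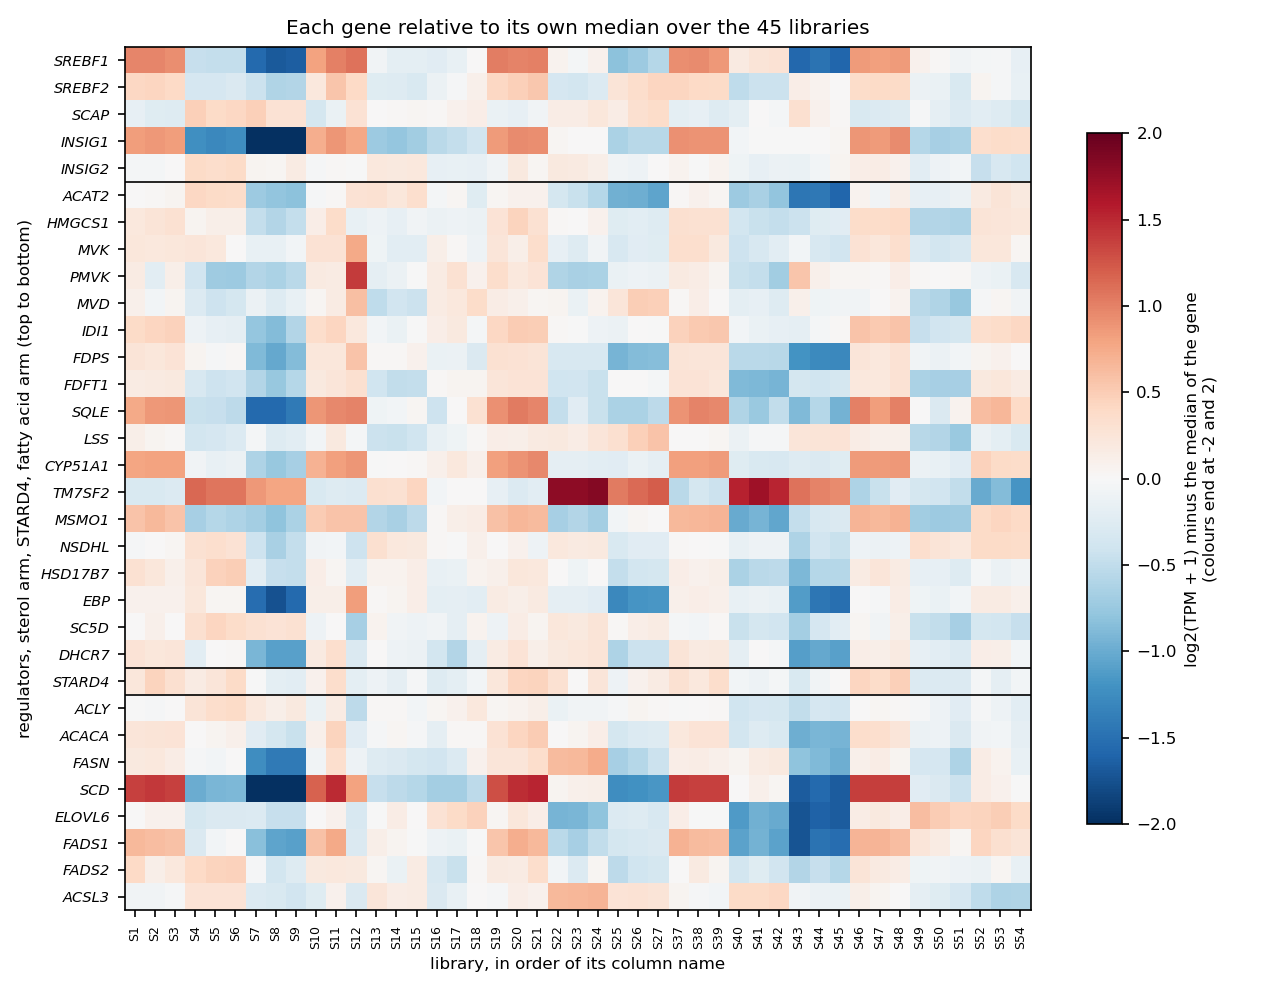
log2(TPM + 1) of each of the 32 genes minus that gene's median, for the 45 unlabelled libraries in columns, ordered by column name, with genes in rows by role. S7, S8 and S9 are low for INSIG1, SQLE and SCD, and S22, S23 and S24 are high for TM7SF2, FASN and ACSL3.

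The spread of a gene was taken as the distance between the 10th and 90th percentile of log2(TPM + 1) over the 45 libraries. A spread of 1 is a doubling of TPM + 1, which at low TPM is more than a doubling of TPM. FADS2, for example, had a 90th percentile 2.07 times its 10th but a spread of 0.74. By that measure the members as a set varied about as much as other genes: their median spread was 0.89, and that of all 12253 genes with a median of at least 1 TPM was also 0.89. A spread of at least 1 was reached by 14 of the 32 genes, against 40.3% of all expressed genes. They were 2 of the 5 regulators, 8 of the 18 sterol enzymes, 0 of the 1 transporter and 4 of the 8 fatty acid enzymes. FASN lay just inside at 1.15 and FDFT1 just outside at 0.94.

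A few genes stood far out in that distribution. SCD spread over 3.01, at percentile 99.4 of the expressed genes, and its highest library held 18.8 times the TPM of its lowest. SREBF1 spread over 2.50, at percentile 98.3, INSIG1 over 2.13, at percentile 96.3, and TM7SF2 over 2.05, at percentile 95.6. SQLE followed at 1.81, FADS1 at 1.74, EBP at 1.54, ELOVL6 at 1.42 and MSMO1 at 1.38. By the ratio of the 90th to the 10th percentile of TPM, SQLE at 5.37 lay above INSIG1 at 4.42 and TM7SF2 at 4.31. At the other end INSIG2 spread over 0.37, at percentile 3.32, ACLY over 0.55 and SCAP over 0.61. INSIG1 was thus wide and INSIG2 narrow, while SREBF1 was wide at 2.50 and SREBF2 lay near the middle of the expressed genes, at 0.86 and percentile 47.1.

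**Figure D3:**
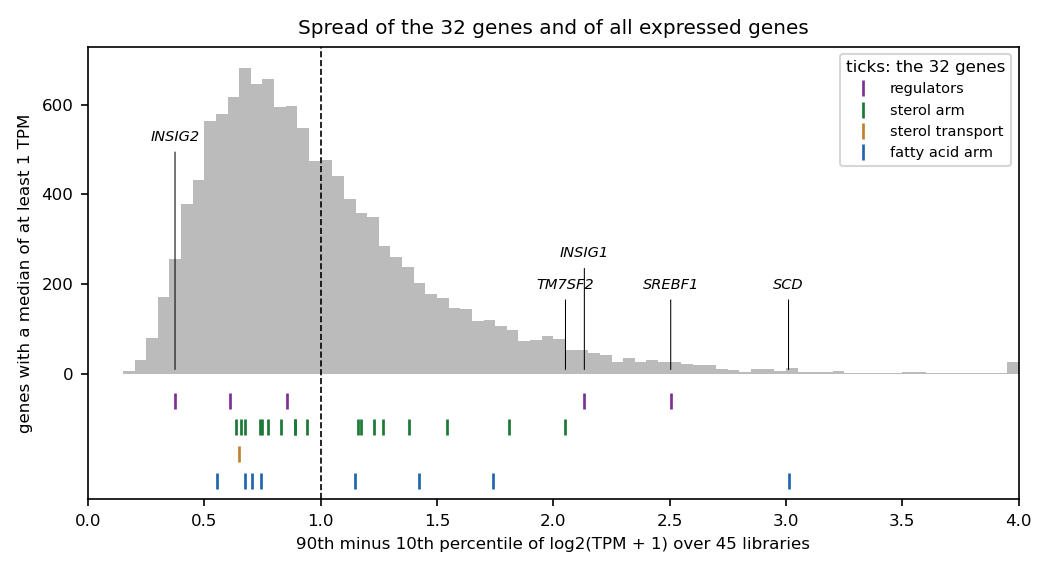
Number of expressed genes (grey bars) by the distance between the 10th and 90th percentile of log2(TPM + 1) over 45 libraries, with the 32 genes as ticks by role below the bars; the dashed line is at 1 and the last bar holds all values above the axis. SCD at 3.01 and SREBF1 at 2.50 lie far to the right, and INSIG2 at 0.37 far to the left.

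Co-variation was measured with Spearman's rho, the correlation of ranks, over libraries. The libraries are not independent, since the titles name groups of 3, and values in TPM share the total of their library, so rho is given as a description. Over the 45 libraries the 153 pairs of sterol enzymes had a median rho of 0.45, from -0.71 to 0.95, and 72 pairs (47.1%) lay above 0.5. The 28 pairs of fatty acid enzymes had a median of 0.41, from -0.44 to 0.84, with 9 pairs (32.1%) above 0.5. The 144 pairs of a sterol with a fatty acid enzyme had a median of 0.38, from -0.78 to 0.88, with 58 above 0.5. Across all 75061878 pairs of expressed genes the median was 0.10 and 18.4% lay above 0.5. Within the cluster of 24 libraries the medians were 0.48 in the sterol arm, 0.62 in the fatty acid arm and 0.48 between the arms, and 0.14 over all pairs of genes. Without S12 in that cluster they were 0.53, 0.64 and 0.56. In the cluster of 6 that holds S4 they were 0.03 in the sterol arm, -0.26 in the fatty acid arm and 0.09 between the arms. These medians lay below those of the 45 libraries, but some members still moved together there. For example, SREBF1, INSIG1, SCD, SQLE and CYP51A1 were higher in S13 to S15 than in S4 to S6. HMGCS1, TM7SF2, ACLY and ACSL3 were lower in S13 to S15. In the cluster of 6 that holds S22 the medians were 0.71, 0.86 and 0.74, and in the one that holds S25 0.54, 0.83 and 0.71. Each of these clusters of 6 falls into sets of libraries at separate levels, given with the arm scores below.

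Of the 6 closest pairs 5 were pairs of sterol enzymes, and the other was SREBF1 with SCD, described below. FDFT1 and MSMO1 reached 0.95 over the 45 libraries and 0.81 within the cluster of 24, and SQLE and CYP51A1 reached 0.94 and 0.91. FDPS had 0.93 with SQLE and 0.92 with CYP51A1, or 0.84 and 0.85 within the 24 libraries. IDI1 and MSMO1 had 0.91, and 0.94 within the 24. The 4 lowest values all involved TM7SF2 or SCAP, and TM7SF2 was negative in 25 of its 31 pairs. TM7SF2 had -0.78 with ELOVL6, -0.76 with FADS1 and -0.71 with SQLE, but within the 24 libraries these were -0.19, -0.15 and 0.04. SCAP and SCD had -0.68, and -0.17 within the 24.

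**Figure D4:**
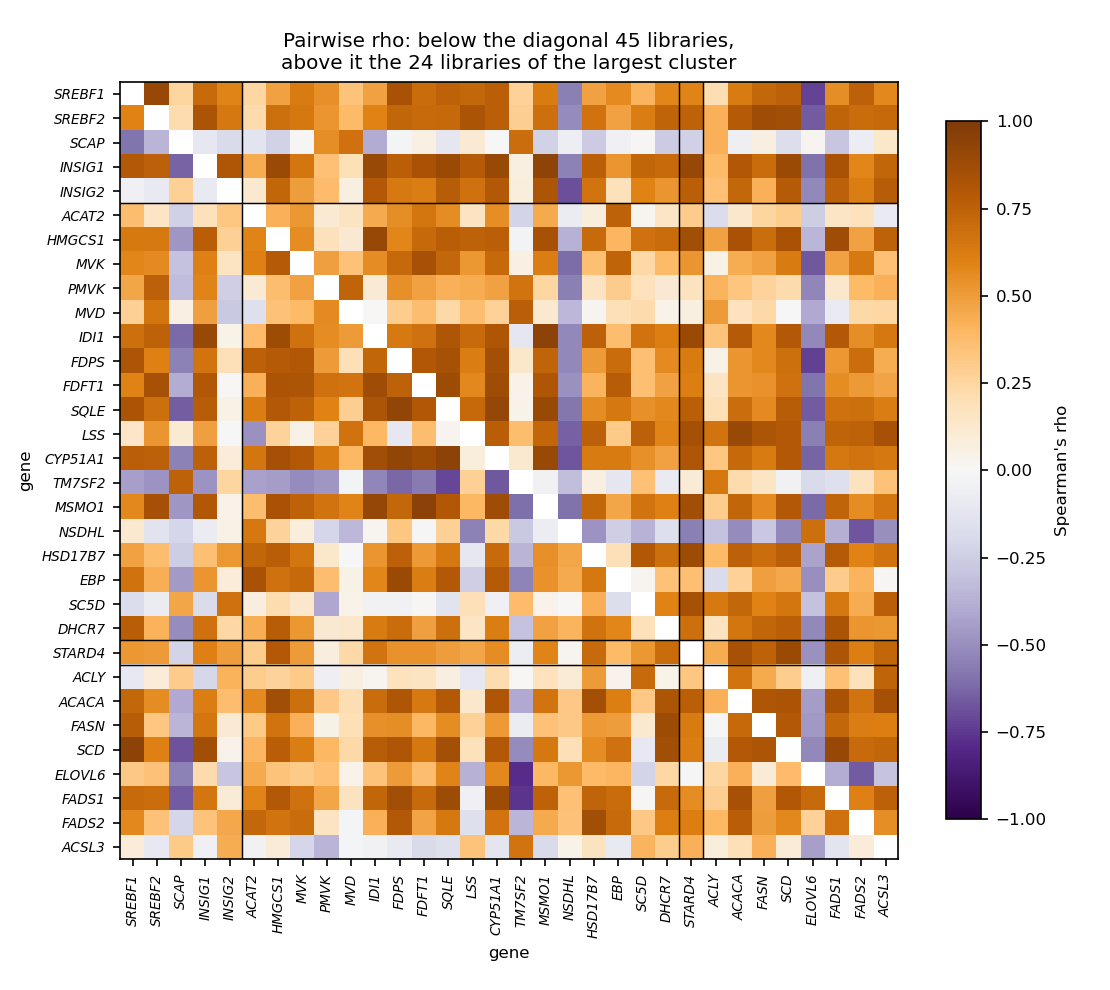
Spearman's rho between every pair of the 32 genes with genes ordered by role, over the 45 unlabelled libraries below the diagonal and over the cluster of 24 above it; colour runs from negative (purple) to positive (brown) rho. Below the diagonal TM7SF2 is negative in 25 of its 31 pairs, reaching -0.78 with ELOVL6.

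An arm score, the mean over its enzymes of log2(TPM + 1) minus each gene's median, was used to set each gene against the sterol arm, always leaving the gene itself out. A rho of at least 0.7 with the sterol score was found for 18 of the 32 genes, against 3.16% of the other expressed genes (386 of 12221). In the sterol arm 11 of the 18 enzymes reached it: CYP51A1 (0.93), FDPS (0.91), HMGCS1 and SQLE (0.88 each), FDFT1 (0.86), IDI1 and MVK (0.82 each), MSMO1 (0.80), EBP (0.78), and HSD17B7 and DHCR7 (0.71 each). ACAT2 had 0.60, PMVK 0.45, MVD 0.40, NSDHL 0.23, LSS 0.12 and SC5D 0.06, and TM7SF2 alone in the arm was negative at -0.59. Within the cluster of 24 libraries 7 of the 18 reached 0.7, against 4.23% of other genes. Without S12 in that cluster 11 of the 18 did, among them HMGCS1 at 0.84, IDI1 at 0.78, DHCR7 at 0.71 and HSD17B7 at 0.70, against 10.1% of other genes. Over the 24, CYP51A1 and FDPS had 0.91, LSS 0.71, ACAT2 0.55, SC5D 0.48, PMVK 0.46, MVD 0.42, TM7SF2 0.20 and NSDHL -0.62.

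The fatty acid enzymes split in the same way. ACACA and SCD each had 0.83 with the sterol score, FADS1 had 0.81 and FADS2 0.72, so 4 of 8 reached 0.7. FASN had 0.67, ELOVL6 0.41, ACLY 0.20 and ACSL3 0.03. Within the 24 libraries only SCD reached it, at 0.76, while ACSL3 had 0.58 and ELOVL6 -0.71. FASN and ACACA had 0.67 and 0.64 there, FADS2 0.68, FADS1 0.59 and ACLY 0.26. Without S12, 5 of the 8 reached 0.7: those 23 libraries gave 0.84 for ACACA, 0.83 for SCD, 0.81 for FADS1, 0.77 for FASN, 0.72 for ACSL3, 0.67 for FADS2, 0.43 for ACLY and -0.67 for ELOVL6. Against their own arm's score over the 45 libraries, ACACA had 0.92, FADS1 0.85, SCD 0.79, FADS2 0.69 and FASN 0.62, while ELOVL6 had 0.36, ACLY 0.20 and ACSL3 -0.03. Within the 24 libraries the first 5 had 0.90, 0.87, 0.86, 0.66 and 0.81, ACSL3 had 0.78, ACLY 0.45 and ELOVL6 -0.50.

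Among the regulators, SREBF1 had 0.81 with the sterol score, INSIG1 0.78 and SREBF2 0.71, and within the 24 libraries 0.86, 0.86 and 0.84. INSIG2 had 0.14, but 0.67 within the 24, and SCAP had -0.44, but 0.14 within the 24. SREBF1 followed SCD at 0.94 (0.75 within the 24) and FASN at 0.78 (0.72). SREBF1 and SREBF2 were tied at 0.60, and at 0.90 within the 24. INSIG1 followed IDI1 at 0.89 (0.89) and SCD at 0.86 (0.89). The sterol carrier STARD4 had 0.66 with the sterol score and 0.71 within the 24.

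The scores of the arms, set against each other, had a rho of 0.85 and a Pearson's r of 0.91 over the 45 libraries, and 0.84 and 0.89 without S8 and S9, the libraries farthest from the median sterol score. Within clusters they had rho 0.66 and r 0.76 in the 24 libraries, and rho 0.94 with r 0.97 and rho 0.94 with r 0.98 in the groups of 6 that hold S22 and S25. Those groups of 6 each fall into sets at separate levels. Over the 45 libraries the sterol score was -0.05 to -0.03 in S22 to S24 and -0.31 to -0.28 in S40 to S42. It was -0.26 to -0.17 in S25 to S27 and -0.44 to -0.41 in S43 to S45. The rho and r in those groups thus rest largely on a difference between sets. In the group of 6 that holds S4 rho was -0.086 and r was 0.13, and the sterol score, centred on those libraries, spanned only -0.07 to 0.05. This group also falls into sets. Over the 45 libraries its sterol score was -0.02 to 0.01 in S4 to S6 and -0.11 to -0.05 in S13 to S15. SCD was 81.5 to 86.9 TPM in S4 to S6 and 109 to 118 TPM in S13 to S15. The fatty acid scores of these sets overlapped. The cluster of S7, S8 and S9 is too small for a value. S12 lay off the common line, with the highest sterol score of all 45 libraries, 0.30, and a fatty acid score of -0.09. Without it rho was 0.91 over 44 libraries and 0.82 within the remaining 23 of its cluster.

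**Figure D5:**
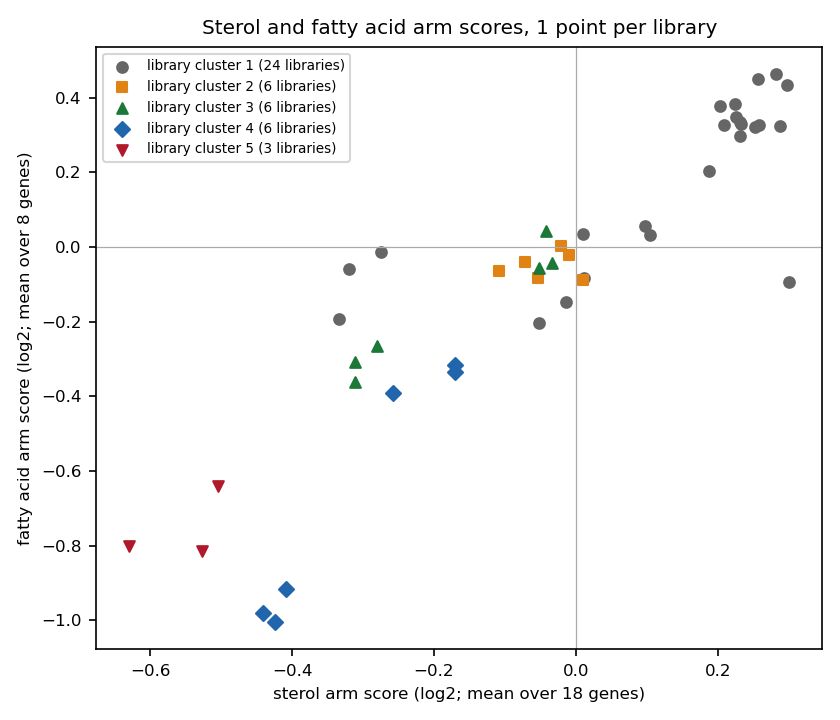
Score of the fatty acid arm (8 enzymes) against that of the sterol arm (18 enzymes), both as mean log2(TPM + 1) minus each gene's median over 45 libraries; each point is 1 unlabelled library, marked by library cluster. The scores rise together, with rho 0.85, and S12, at a sterol score of 0.30 and a fatty acid score of -0.09, lies below the others on the right.

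Of the library quantities, the summed plasma cell and myeloma markers moved most with the sterol score, with a rho of 0.81. Much of that sum is 1 gene: JCHAIN had a median of 5181 TPM, and the sum a median of 7586 TPM. The share of TPM taken by the 10 most abundant genes had rho -0.32 and r -0.45 with the sterol score. With the fatty acid score that share had rho -0.31 and r -0.53. The number of genes above 0 had rho -0.19 and r -0.07 with the sterol score, and rho -0.30 within the cluster of 24 libraries. In bulk RNA a smaller share of cells of a type and less RNA per cell cannot be told apart. The part of these quantities in the co-variation was not tested.

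Of 31 related genes in 4 lists, 1 (3.23%) had a rho of at least 0.7 with the sterol score over the 45 libraries, which is about the share of other expressed genes, 3.16%. Within the cluster of 24 libraries 2 (6.45%) had it, against 4.23%, and without S12 there 8 (25.8%) had it, against 10.1%. Among 6 genes of SREBP processing and turnover none reached 0.7, and the median was -0.35 (0.10 within the 24). ERLIN1, a scaffold that binds the SREBP complex, was highest at 0.61 (0.34), and RNF139, a ubiquitin ligase of the endoplasmic reticulum, lowest at -0.66 (-0.37). Of 6 genes in the other branches that use isoprenoids none reached it over the 45 libraries, and the median was 0.43 (0.29). COQ2 of ubiquinone synthesis had 0.68 (0.17), DHDDS of dolichol synthesis had -0.59 (-0.74), and PDSS2, also of ubiquinone synthesis, had 0.42 (0.79). In the 13 other genes of fatty acid handling and acetyl-CoA supply the median was 0.08 (0.29), and 1 reached it. That gene was MID1IP1, which promotes polymerisation of acetyl-CoA carboxylase, with 27.7, 48.2 and 78.2 TPM in the lowest, median and highest library and a rho of 0.81 (0.97). ACSL1 was lowest of that list at -0.66 (-0.30). Of 6 genes of the LXR pathway, sterol efflux and esterification none reached 0.7, and the median was -0.23 (0.17). They ranged from LPCAT3, an LXR target that remodels phospholipids, at -0.61 (-0.44) to ABCG1, a sterol exporter, at 0.34 (0.69).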

How the data were processed

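The deposited table gives TPM per gene for 45 value columns, computed by the authors; the submitters' processing notes name STAR, featureCounts, FastQC, MultiQC and hg19 without roles or versions. Whether counting used strand is not given in the sources used here. The names of 0 of the 45 columns matched a sample, so all 45 were used as unlabelled libraries. Depth is unknown in TPM, and no interval for counting error was formed. Values were used as log2(TPM + 1) for genes with a median of at least 1 TPM (12253 genes). All 32 members were named, with related genes taken from 4 lists totalling 31, and the 10 highest and 5 lowest other genes by rho with a median of at least 5 TPM. The members and lists were chosen with earlier results of these data known. Without groups there was no test. Library clusters came from average linkage on 1 minus Spearman's rho, choosing among 2 to 8 clusters by silhouette (at least 0.25 required), and clusters of at least 6 libraries were used. Alternatives were a pseudocount of 0.1, rescaling by median ratios, other filters on level, Pearson's r, libraries left out and values within clusters. Leaving S12 out of its cluster was chosen after seeing the data. The steps were tested on simulated data. Python 3.11.15, numpy 2.4.6, pandas 2.3.3, scipy 1.17.1, scikit-learn 1.9.0 and matplotlib 3.10.9 were used. Some values may hold reads of a neighbour or copy: HSD17B7 has a pseudogene listed at up to 11.4 TPM, and ACAT2 overlaps TCP1 and SOD2, MVK overlaps MMAB, IDI1 overlaps WDR37, SREBF1 overlaps RAI1, and FADS1 overlaps FADS2 in RefSeq.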

Additional observations from a re-analysis of the deposited data

How the results depend on the processing

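The number of the 32 genes with a spread of at least 1 was 14 whichever library was left out, and 12 to 18 under the other settings, the highest with libraries rescaled by median ratios. The scaling factors were 0.82 to 1.22, and the rho of 0 members with the sterol score changed sign under them. Leaving out 1 library at a time gave a median rho of 0.43 to 0.48 within the sterol arm, 0.37 to 0.43 within the fatty acid arm, 0.35 to 0.40 between the arms, and a rho of the arm scores of 0.85 to 0.91. Pseudocount, filter, scaling, Pearson's r and leaving out S8 and S9 gave 0.40 to 0.54, 0.38 to 0.51, 0.34 to 0.46 and 0.84 to 0.91. Every library but S12 has another at a rank correlation of at least 0.993. Leaving out 1 library therefore keeps its close partners, as leaving out S8 and S9 keeps S7. The values with libraries left out thus say little about dependence on a whole set of libraries. Values moved or turned within clusters of 6 libraries. In the one that holds S4 the sterol arm had a median rho of 0.03, the pairs between the arms 0.09, the fatty acid arm -0.26 and the arm scores a rho of -0.0857. In those that hold S22 and S25 the fatty acid arm had 0.86 and 0.83, and in the one that holds S22 the pairs between the arms had 0.74. The cause was not tested, and each of these values rests on 6 libraries. In each of these clusters the libraries fall into sets at separate levels. In the one that holds S4 the sets differ in the sterol score but overlap in the fatty acid score. No paired analysis was possible because no column was assigned to a group.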

Other observations

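Outside the lists, the genes that followed the sterol score most closely were of other kinds. Of the 9970 genes that are no members and have a median of at least 5 TPM, the closest was CHEK2, a checkpoint kinase. CHEK2 had 7.16, 23.4 and 29.1 TPM in the lowest, median and highest library. Its rho was 0.91, both over the 45 libraries and within the cluster of 24. LONP1, a mitochondrial protease, had 73.7, 136 and 250.2 TPM and a rho of 0.90 (0.88 within the 24). NPM3, a nucleolar chaperone, had 20.7, 99.0 and 207 TPM and a rho of 0.89 (0.87). Then came IARS, an isoleucyl-tRNA synthetase, and C21orf58 (0.88 each), then MRPL1 of the mitochondrial ribosome, TMUB1, the mitochondrial aminotransferase BCAT2, TIMM44 of the mitochondrial import motor, and TMX2 (0.87 each). Within the 24 libraries these 7 had 0.77, 0.82, 0.77, 0.83, 0.81, 0.84 and 0.85. Only 4 members had a higher rho than TMX2. At the opposite end FBXO32, part of a ubiquitin ligase, had 3.42, 9.39 and 20.8 TPM and a rho of -0.90 (-0.77 within the 24). UCP2 had -0.87 (-0.76), ATF5 -0.86 (-0.62), USF1, an E-box factor, -0.84 (-0.76) and S100A13 -0.84 (-0.65).

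The members of the library clusters, found from genes in none of the lists, were as follows. The cluster of 24 holds S1 to S3, S10 to S12, S16 to S21, S37 to S39 and S46 to S54. The clusters of 6 hold S4 to S6 with S13 to S15, S22 to S24 with S40 to S42, and S25 to S27 with S43 to S45, and the cluster of 3 holds S7 to S9. What sets the clusters apart cannot be read from unlabelled columns.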
